A study of Mus musculus with 12 samples.

Results

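Transcripts of 9 genes were followed through libraries made from mouse articular chondrocytes, taken either from the superficial zone (SFZ) or from the deep zone (DZ) of the cartilage: Apoe and the macrophage genes C1qa, C1qb, C1qc, Lyz2, Laptm5, Mpeg1, Cd68 and Tyrobp. They are 9 of the 17536 genes in the deposited table and were selected because several of them had lower values in the DZ cells of conditional knockout mice. That DZ genotype contrast therefore chose the genes, and their DZ values are given as a description without a test. The question was whether Apoe followed the macrophage genes.

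RNA was sequenced from SFZ and DZ chondrocytes of 5-day-old C57BL/6 littermates, with 3 libraries in each of 4 groups and 12 libraries in all. R3-Cntl mice carried 2 floxed Runx3 alleles (Runx3 fl/fl) without Cre, and R3-cKO mice carried the same alleles with Cre under the Col2a1 promoter (Col2a1-Cre; Runx3 fl/fl). Col2a1 encodes the main cartilage collagen, so this Cre is aimed at chondrocytes and not at macrophages. SFZ cells were released from the ends of the femur and tibia by trypsin and then collagenase, and DZ cells by a longer collagenase digestion of the cartilage that remained, ligaments and tendons having been removed first. The study's methods describe monolayer culture for the cells of every experiment, and seeding on fibronectin for the dissociated SFZ and DZ cells. They give no time in culture for these libraries. The values are FPKM, fragment abundances corrected for transcript length and library depth, which the authors also scaled between libraries. The FPKM unit was inferred from the values.

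Macrophages are phagocytes of the innate immune system and populate the synovium and the other soft tissue around a joint. C1qa, C1qb and C1qc encode the chains of C1q, the recognition molecule of the classical complement pathway, which tissue macrophages secrete. Lyz2 encodes lysozyme, Mpeg1 a pore-forming protein of phagosomes, Cd68 and Laptm5 proteins of late endosomes and lysosomes, and Tyrobp an adaptor that carries signals from Trem2 and related receptors. Apoe encodes apolipoprotein E, which carries lipid between cells. Macrophages make it in quantity, but so do several other cell types, which is why its company among macrophage genes could be asked about.

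The level of Runx3 itself did not separate the genotypes, and the libraries labelled R3-cKO are named by their labels. In SFZ it was at 10.7, 5.98 and 6.65 FPKM in R3-Cntl and at 11.8, 9.07 and 3.42 FPKM in R3-cKO. In DZ it was at 12.7, 12.7 and 7.66 FPKM in R3-Cntl and at 16.0, 12.7 and 8.14 FPKM in R3-cKO. A floxed gene can still be transcribed outside the deleted exons, and a value for the whole gene cannot show which exons were present. The Y-linked gene Ddx3y was at 0 to 0.02 FPKM in replicates 2 and 3 of R3-cKO in both zones and at 4.96 FPKM or more in the other 8 libraries, so Y-linked transcripts were not balanced between the genotypes. Col2a1 was at 3049 FPKM or more in all libraries. In replicate 3 of R3-cKO SFZ, however, the fibroblast collagen genes Col1a1 (4793 FPKM) and Col1a2 (4713 FPKM) exceeded it, as Col1a1 did in replicate 2 of R3-Cntl SFZ (3706 FPKM beside 3241 FPKM).

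In the annotation of mm9, the build of the deposited values, C1qb, C1qc and C1qa lie side by side on the reverse strand of chromosome 4, with C1qb at chr4:136436044-136442102, C1qc at chr4:136445719-136448980 and C1qa at chr4:136451832-136454718. The cluster starts 1702.1 kb from Runx3 (chr4:134676567-134733905), and Laptm5 (chr4:130469040-130492056) is on the same chromosome at 4184.5 kb on the other side. Apoe (chr7:20281458-20284515) and Tyrobp (chr7:31198807-31202596) are on chromosome 7, Lyz2 (chr10:116714390-116719377) is beside its copy Lyz1 on chromosome 10, Cd68 (chr11:69477715-69479655) is on chromosome 11 and Mpeg1 (chr19:12535269-12539774) on chromosome 19. Apart from the C1q cluster, the genes do not neighbour each other.

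Promoter sequences from RefSeq (GRCm38.p6) were found for 7 of the 9 genes, C1qa and Tyrobp being without an entry. Because the macrophage genes moved together between libraries, the 250 bases before the start were searched on both strands for the Runx letters TGTGGT or TGCGGT and for GAGGAA, the core letters of the myeloid factor PU.1. Of all 32851 promoters, 18.6% held a Runx match and 23.3% held GAGGAA in a window of this length. A Runx match was found for 2 of the 7 genes, C1qc and Lyz2, and GAGGAA in at least 1 entry of 5 genes. The promoters of C1qc, of Lyz2 and of the most downstream of 3 Apoe entries are shown to set Apoe beside the macrophage genes, with matches on either strand in capitals (on the other strand GAGGAA reads TTCCTC and TGTGGT reads ACCACA). All 3 are on the reverse strand, at chr4:136892915-136893164, chr10:117282273-117282522 and chr7:19698399-19698648.
C1qc: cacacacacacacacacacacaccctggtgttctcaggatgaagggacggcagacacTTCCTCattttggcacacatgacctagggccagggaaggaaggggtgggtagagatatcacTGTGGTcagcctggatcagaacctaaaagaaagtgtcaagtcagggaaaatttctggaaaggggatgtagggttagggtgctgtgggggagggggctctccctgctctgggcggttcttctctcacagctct
Lyz2: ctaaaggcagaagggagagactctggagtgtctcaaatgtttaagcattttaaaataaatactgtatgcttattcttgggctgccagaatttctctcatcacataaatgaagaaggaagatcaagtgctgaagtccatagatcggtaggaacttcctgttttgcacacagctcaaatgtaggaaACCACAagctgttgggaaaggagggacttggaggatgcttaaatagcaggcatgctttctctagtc
Apoe: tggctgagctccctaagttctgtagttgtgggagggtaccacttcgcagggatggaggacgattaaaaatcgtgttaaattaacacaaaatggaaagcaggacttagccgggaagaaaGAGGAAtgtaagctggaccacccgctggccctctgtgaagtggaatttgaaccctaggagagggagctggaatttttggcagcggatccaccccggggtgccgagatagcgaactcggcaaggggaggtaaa
C1qc held both kinds of match, Lyz2 a Runx match alone and this Apoe entry GAGGAA alone. The next Apoe entry upstream held no match of either kind, and the most upstream entry held GAGGAA. Apoe was counted over 3 entries, whereas the shares of all promoters are for single promoters. A match of letters is a description and does not show binding.

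Among the 8 macrophage genes, Lyz2 had the highest values. In SFZ it was at 127, 102 and 3.56 FPKM in R3-Cntl and at 96.3, 8.26 and 43.5 FPKM in R3-cKO. Replicates 1 and 2 of R3-Cntl and replicate 1 of R3-cKO were high, replicate 3 of R3-cKO was intermediate, and replicate 3 of R3-Cntl and replicate 2 of R3-cKO were low, so the genotypes overlapped fully. C1qa had the same high and low libraries, at 4.84, 5.13 and 0.14 FPKM for R3-Cntl and at 7.13, 0.44 and 3.99 FPKM for R3-cKO. C1qb was at 5.66, 7.46 and 0.07 FPKM in R3-Cntl and at 8.80, 0.49 and 4.06 FPKM in R3-cKO. All 3 C1q genes ranked the 6 SFZ libraries in the same order.

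Tyrobp was at 11.7, 10.3 and 0.06 FPKM in R3-Cntl SFZ and at 9.79, 0.58 and 4.42 FPKM in R3-cKO SFZ. Cd68 was at 19.8, 15.1 and 1.91 FPKM in R3-Cntl SFZ and at 14.8, 3.77 and 8.36 FPKM in R3-cKO SFZ. Both adaptor and lysosomal gene were low in the same libraries as Lyz2. C1qc, Mpeg1 and Laptm5 had SFZ values of 0.21 to 7.30, 0.09 to 7.37 and 0.47 to 9.02 FPKM, with their lowest value in replicate 3 of R3-Cntl. In bulk RNA, fewer macrophages and less of these transcripts per cell cannot be told apart.

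Apoe in SFZ was at 26.4, 20.6 and 2.90 FPKM in R3-Cntl and at 49.3, 1.78 and 80.5 FPKM in R3-cKO. It was low in the same 2 libraries as the macrophage genes, but its highest value was in replicate 3 of R3-cKO, where each of the 8 macrophage genes was below its value in replicates 1 and 2 of R3-Cntl. Group means were 16.6 ± 12.2 FPKM (SD, n = 3) in R3-Cntl and 43.9 ± 39.6 FPKM (SD, n = 3) in R3-cKO.

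**Figure D1:**
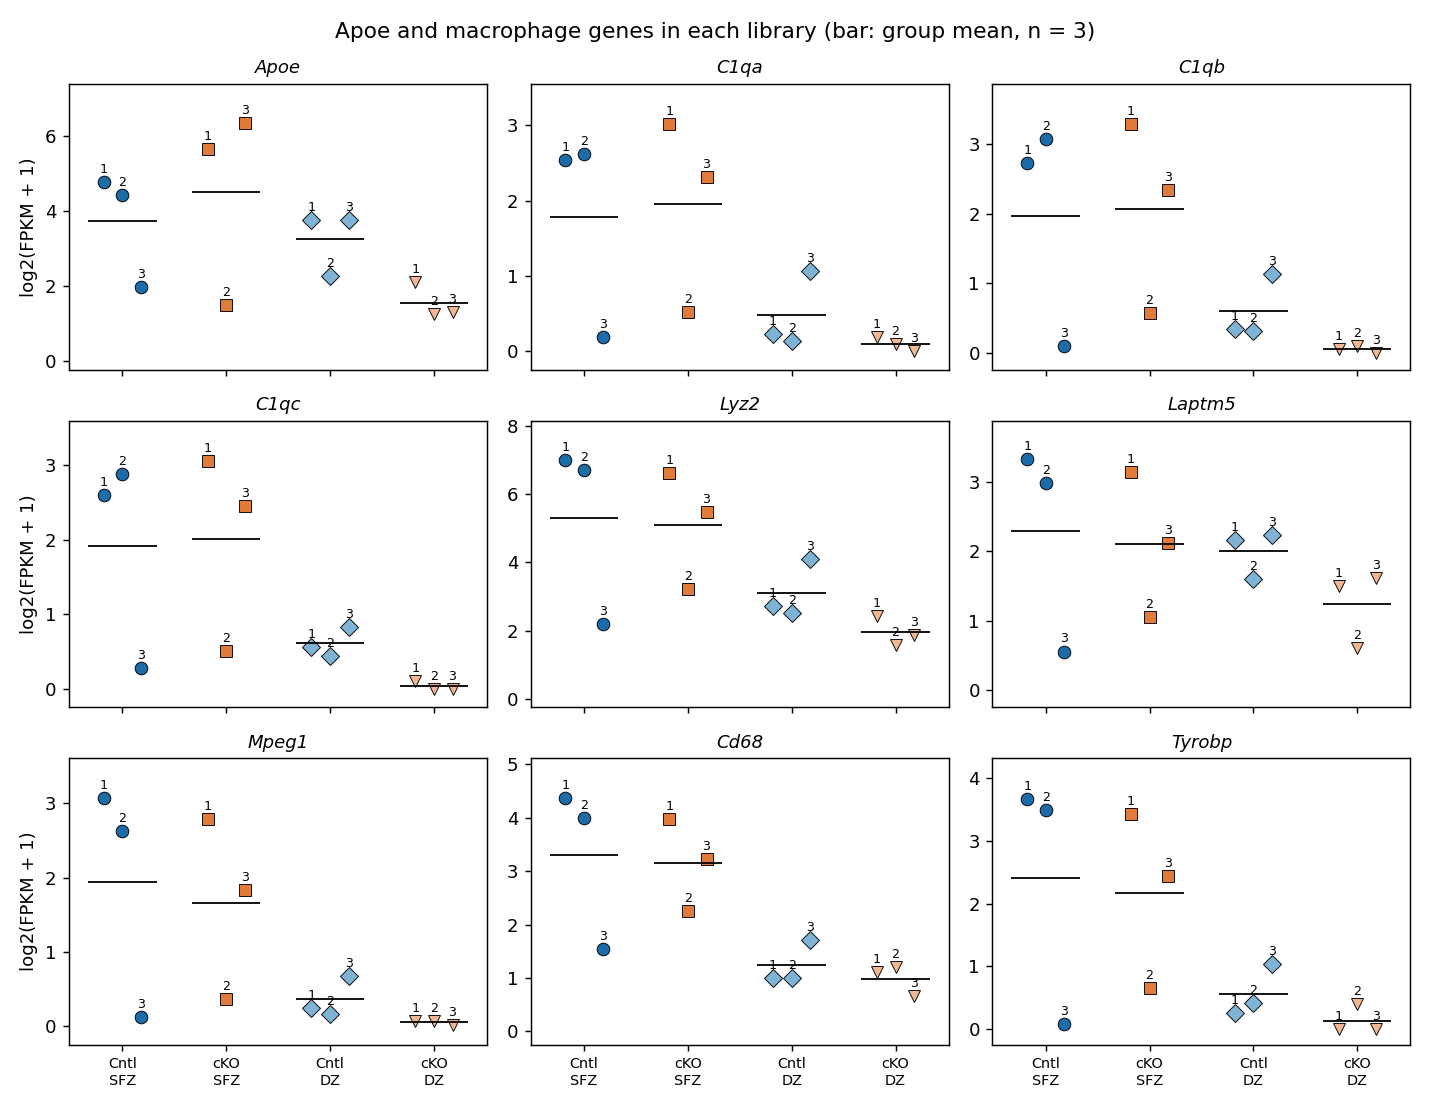
Values of the 9 genes as log2(FPKM + 1) on the vertical axes, with 1 point for each library, numbered by replicate, and a bar at the mean of each group of 3. In SFZ, replicate 3 of R3-Cntl and replicate 2 of R3-cKO are the 2 lowest libraries for all 9 genes, and Apoe alone is highest in replicate 3 of R3-cKO.

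The SFZ libraries did not enter the choice of the genes, so the SFZ genotype effect was tested. With limma on log2(FPKM + 1), the difference between R3-cKO and R3-Cntl was 0.77 ± 1.42 (SE) for Apoe, -0.20 ± 1.49 for Lyz2, 0.17 ± 0.88 for C1qa and -0.24 ± 1.15 for Tyrobp. All 9 genes had a Benjamini-Hochberg adjusted p of 0.9997, and the standard errors exceeded the differences. None of the 9 had groups that did not overlap, where 1.17% of 17157 genes had all R3-cKO values below all R3-Cntl values. Over the whole table limma called 0 of 11537 genes (0%) at an adjusted p under 0.05, and 34 genes had an unadjusted p under 0.05. That number was 1204 without replicate 2 of R3-cKO SFZ, 101 without replicate 1 of R3-Cntl SFZ and 12 without replicate 3 of R3-cKO SFZ. The p-values measure the spread between these libraries. Such a difference was not detectable with this spread, and its absence is not shown.

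In DZ, Apoe was at 12.6, 3.78 and 12.4 FPKM in R3-Cntl and at 3.30, 1.36 and 1.46 FPKM in R3-cKO. Lyz2 was at 5.65, 4.69 and 16.2 FPKM in R3-Cntl and at 4.36, 2.0 and 2.69 FPKM in R3-cKO. For both genes each R3-cKO library lay below each R3-Cntl library. The 9 genes had been selected on this contrast, so nothing is read from that separation.

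C1qc was at 0.48, 0.35 and 0.77 FPKM in R3-Cntl DZ and at 0.07, 0 and 0 FPKM in R3-cKO DZ. C1qa was at 0.17, 0.10 and 1.10 FPKM in R3-Cntl DZ and at 0.14, 0.07 and 0 FPKM in R3-cKO DZ. The C1q genes thus had low values in DZ cells of both genotypes, replicate 3 of R3-Cntl being the highest with 1.19 FPKM for C1qb. Laptm5 kept higher values, at 3.48, 2.03 and 3.70 FPKM in R3-Cntl DZ and at 1.84, 0.52 and 2.07 FPKM in R3-cKO DZ. Cd68 was at 1.0, 0.99 and 2.29 FPKM in R3-Cntl DZ and at 1.15, 1.30 and 0.58 FPKM in R3-cKO DZ, and here the groups overlapped.

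Non-overlapping groups with lower R3-cKO values were seen for 5 of the 9 genes (Apoe, C1qb, C1qc, Lyz2 and Mpeg1), beside 2.92% of the 16891 genes above 0 in DZ. Only 4 of the 9 reached 1 FPKM in at least 3 DZ libraries, namely Apoe, Lyz2, Laptm5 and Cd68. Their differences on the log2(FPKM + 1) scale were -1.71 ± 0.46 (SE) for Apoe, -1.15 ± 0.44 for Lyz2, -0.76 ± 0.32 for Laptm5 and -0.25 ± 0.26 for Cd68, with a median over all 11091 genes of 0.05. Limma called 0 of these 11091 genes at an adjusted p under 0.05, and 404 had an unadjusted p under 0.05, or 1830 when the number of the replicate was added as a block. Without 1 library the 404 became 773 (without replicate 3 of R3-cKO), 239 (replicate 1 of R3-cKO), 222 (replicate 1 of R3-Cntl) or 211 (replicate 2 of R3-cKO). With the block the SE was 0.27 for Apoe, 0.36 for Lyz2, 0.13 for Laptm5 and 0.28 for Cd68. Paired by number, 8 of the 9 genes were lower in R3-cKO in all 3 pairs, Cd68 being the exception, beside 12.3% of the 16891 genes. The genes had been selected on this contrast, so the counts of 5 and 8 of the 9 are not read against the shares of all genes. Some lower pairs were also nearly equal. In replicate 2, Tyrobp was at 0.33 FPKM for R3-Cntl and at 0.32 FPKM for R3-cKO, an estimated 5 fragments each. The study's own table, evaluated with DESeq2, also listed Apoe, C1qc and Mpeg1 among genes lower in these DZ libraries. It rests on the same libraries and is not independent evidence.

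The fragments behind the lowest values were few. In short genes with 1 transcript the low values fell on steps, and the step that fitted best was 0.033 to 0.0385 FPKM for 1 fragment on 1 kb, with 79.6 to 89.0% of low values within 0.25 of a step from a whole multiple, where an even spread gives 50%. From this step, C1qa, C1qb and C1qc together had an estimated 29, 21 and 91 fragments in R3-Cntl DZ and 7, 4 and 0 in R3-cKO DZ. In SFZ they had an estimated 524, 559 and 13 fragments in R3-Cntl and 712, 42 and 376 in R3-cKO. Counting error is thus large in the R3-cKO DZ libraries and small in the SFZ libraries with many fragments.

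The zone effect averaged over genotypes was tested over all 12 libraries. It weighs both genotypes alike, which makes it orthogonal to the DZ genotype contrast, but it holds the same DZ libraries that chose the genes. Cells of both zones came from 3 littermates of each genotype, so SFZ and DZ libraries of a genotype can share a mouse, while the fit takes all 12 as separate. All 9 genes had lower mean values in DZ than in SFZ in each genotype. On the log2(FPKM + 1) scale Apoe differed by -0.47 in R3-Cntl and -2.95 in R3-cKO, Cd68 by -2.07 and -2.17, and Lyz2 by -2.18 and -3.13. The values of R3-cKO in DZ chose the genes, so nothing is read from the gap between genotypes. Lyz2 averaged 63.5 ± 52.2 FPKM (SD, n = 6) in SFZ and 5.93 ± 5.19 FPKM in DZ. Cd68 averaged 10.6 ± 7.07 and 1.22 ± 0.58 FPKM, and Apoe averaged 30.3 ± 30.2 and 5.81 ± 5.26 FPKM.

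The 4 genes that reached 1 FPKM in at least 3 DZ libraries were read against the threshold. On the log2(FPKM + 1) scale limma gave DZ minus SFZ differences of -2.12 ± 0.47 (SE, adjusted p = 0.0130) for Cd68 and -2.66 ± 0.85 (adjusted p = 0.0498) for Lyz2, which passed, and 16.8% of all 11765 genes were called lower in DZ. Apoe, at -1.71 ± 0.81 (limma adjusted p = 0.160), and Laptm5, at -0.58 ± 0.50 (limma adjusted p = 0.437), did not pass. Lyz2 was among the genes whose R3-cKO values all lay below R3-Cntl in DZ. Its call therefore draws in part on the values that chose it, and nothing further is read from it. C1qa (-1.58 ± 0.50), C1qb (-1.70 ± 0.56), C1qc (-1.64 ± 0.50), Mpeg1 (-1.59 ± 0.52) and Tyrobp (-1.95 ± 0.64) reached 1 FPKM in at most 1 DZ library and entered the fit through SFZ, where they were high, so their differences are a description without a call.

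The Cd68 call held in each of 19 alternatives, with limma adjusted p from 0.00225 to 0.0393. That of Lyz2 was lost in 16 of 20, among them the removal of any library other than replicate 3 of R3-Cntl SFZ and replicate 2 of R3-cKO SFZ (limma adjusted p of 0.0535 to 0.124). Apoe passed in 1 of 20, without replicate 2 of R3-cKO SFZ (adjusted p = 0.0115 in limma, range 0.0115 to 0.296). With genotype and number as a block, limma gave adjusted p of 0.0137 for Cd68, 0.0413 for Lyz2, 0.139 for Apoe and 0.296 for Laptm5. Whether Apoe and the macrophage genes differ in their zone effect was not tested.

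Among all genes tested 2424 passed, 450 higher and 1974 lower in DZ. With quantile normalization the split was 1086 higher and 781 lower, and with median-of-ratios size factors 934 and 968, as these scalings moved the median difference of all genes from -0.14 to 0.04 and to 0.00. The count was 3965 with the block, 1245 without replicate 2 of R3-Cntl SFZ, 1545 without replicate 1 of R3-Cntl DZ and 1588 without replicate 1 of R3-cKO DZ. The 9 genes kept lower DZ values under both scalings. Lyz2 no longer passed with quantile normalization (limma adjusted p = 0.0784) or median-of-ratios size factors (limma adjusted p = 0.0685). Cd68 passed under both (limma adjusted p of 0.0234 and 0.0178).

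Other macrophage genes were followed in a list of 35 that held none of the 9. Of these 34 were in the table and 19 were tested, but only 4 reached 1 FPKM in at least 3 DZ libraries. Gpnmb (-2.29 ± 0.39, SE, limma adjusted p = 0.00483) was lower in DZ, while F13a1 (0.88 ± 0.42, limma adjusted p = 0.158) and Ms4a6c (0.13 ± 0.23, limma adjusted p = 0.718) had higher DZ values without passing. The other 15 did not reach this level in DZ and were tested mainly through their SFZ values, so the 9 of 19 called lower, beside 16.8% of all genes, support nothing further. Ctss, a lysosomal protease, was at 31.9, 20.3 and 0.48 FPKM in R3-Cntl SFZ and at 20.2, 1.40 and 5.76 FPKM in R3-cKO SFZ, and at 1.66 FPKM or less in DZ. Csf1r, the receptor for the macrophage growth factor, was at 4.83, 4.67 and 0.68 FPKM in R3-Cntl SFZ and at 4.6, 0.58 and 1.59 FPKM in R3-cKO SFZ, and at 0.79 FPKM or less in DZ. Trem2, which signals through Tyrobp, was at 4.2, 3.7 and 0.10 FPKM in R3-Cntl SFZ and at 3.51, 0.44 and 1.30 FPKM in R3-cKO SFZ, and at 0.16 FPKM or less in DZ. Spi1, which encodes PU.1, was at 2.67, 3.11 and 0 FPKM in R3-Cntl SFZ and at 3.10, 0.16 and 0.75 FPKM in R3-cKO SFZ, with 0.36 FPKM or less in DZ. Of the Tyrobp partners 5 of 5 tested genes had lower DZ values, beside 72.0% of all genes tested. Only Plcg2 among these 5 reached 1 FPKM in 3 DZ libraries.

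The summed FPKM of the list was 196, 176 and 54.1 in R3-Cntl SFZ, 187, 60.7 and 212 in R3-cKO SFZ, 28.0, 31.8 and 53.5 in R3-Cntl DZ and 40.4, 34.0 and 22.5 in R3-cKO DZ. Gpnmb, its most abundant gene, is also expressed outside macrophages and was at 130 FPKM in replicate 3 of R3-cKO SFZ, its highest library. Several defining genes of resident macrophages were near 0 throughout, with Lyve1 at most 0.03, Cd163 at most 0.10 and Aif1 at most 0.23 FPKM, while Folr2 reached 4.15, Adgre1 3.32 and Mrc1 2.24 FPKM, each in SFZ. The pan-leukocyte gene Ptprc reached 0.88 FPKM. Of 18 tested leukocyte genes 17 had lower DZ values, beside 72.0% of all genes, and 2 were called lower in DZ, beside 16.8%. Only 4 of the 18 reached 1 FPKM in at least 3 DZ libraries, so these counts support nothing further.

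Other cell types also differed between the libraries. The fibroblast and synovial list summed to 2324, 4652 and 2494 FPKM in R3-Cntl SFZ, 2399, 2152 and 6942 FPKM in R3-cKO SFZ and 113 to 1233 FPKM in DZ, with Col1a2 its most abundant gene, and 11 of 12 tested genes passed as lower in DZ, beside 16.8% of all genes, where 9 of the 12 reached 1 FPKM in at least 3 DZ libraries and the others entered through SFZ. The chondrocyte list went the other way, 11 of 13 genes being higher in DZ past the threshold, beside 3.82% of all genes. Replicate 3 of R3-cKO SFZ, where Apoe was highest, also had the largest fibroblast sum. The part of these cell types in the Apoe and macrophage values was not tested.

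Likeness between Apoe and the macrophage genes was described over the 12 libraries after the 4 group means had been removed, so that neither the zone nor the genotype contrast enters. The 8 macrophage genes rose and fell as 1 block, with Pearson r of 0.893 to 0.994 between pairs. Apoe followed their mean with r = 0.839 (n = 12 libraries, with Spearman's rho 0.853). Removal of the 4 group means left 8 free values, and SFZ and DZ libraries of a genotype can share a mouse. That r was exceeded by 167 of 11757 other genes, or 1.42%. Lowest among the 8 was Laptm5, whose r with the mean of the other 7 was 0.933. Apoe therefore moved with the block, and over these 12 libraries its r was below that of any gene in it. The difference between these values of r was not tested.

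The value rested in part on the libraries with little of everything macrophage. Without replicate 3 of R3-Cntl SFZ and replicate 2 of R3-cKO SFZ, which lay farthest out, r was 0.627 (n = 10). In SFZ alone r was 0.858 (n = 6) and in DZ alone 0.631 (n = 6). Without replicate 3 of R3-cKO SFZ it was 0.917.

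**Figure D2:**
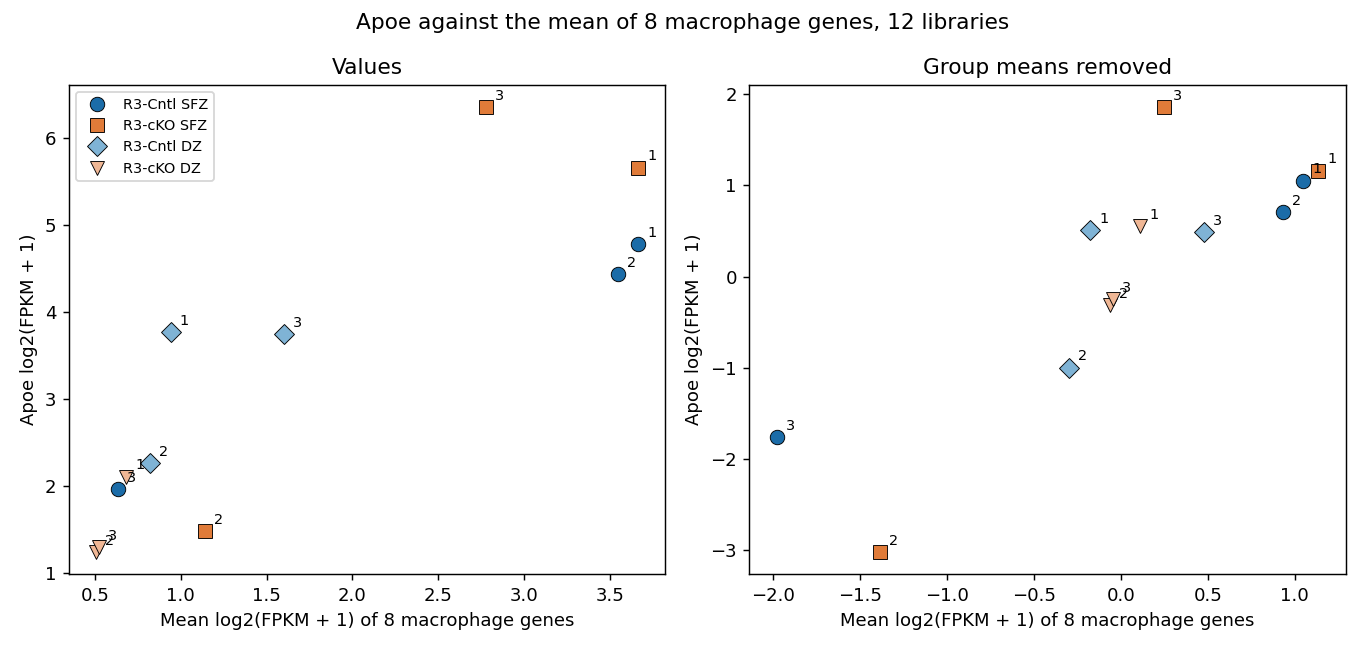
Apoe as log2(FPKM + 1) on the vertical axes against the mean log2(FPKM + 1) of the 8 macrophage genes on the horizontal axes, with 1 point for each of the 12 libraries, numbered by replicate; the right panel shows both after removal of group means. Replicate 3 of R3-cKO SFZ has the highest Apoe value at an intermediate macrophage value, and r in the right panel is 0.839.

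Ratios within a library do not depend on the scaling between libraries. The ratio of Apoe to Lyz2 in SFZ was 0.208, 0.201 and 0.815 in R3-Cntl and 0.513, 0.215 and 1.85 in R3-cKO. In DZ it was 2.22, 0.806 and 0.767 in R3-Cntl and 0.757, 0.680 and 0.543 in R3-cKO. The ratio thus varied 11.1-fold over the 12 libraries, the ratio of Lyz1 to Lyz2 2.96-fold and that of C1qb to C1qa 8.4-fold over 11 libraries, with 9.19-fold, 1.97-fold and 2.91-fold within SFZ. Lyz1 and Lyz2 share 95.1% of 447 coding bases, but only 24 of 1214 windows of 100 bases in Lyz2 occur unchanged in Lyz1.

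Against the summed C1q genes, Apoe had a ratio of 1.70, 1.09 and 6.90 in R3-Cntl SFZ and of 2.12, 1.32 and 6.42 in R3-cKO SFZ. The ratio was 13.7, 5.48 and 4.06 in R3-Cntl DZ and 13.2 and 9.71 in replicates 1 and 2 of R3-cKO DZ, the C1q genes being listed at 0 in replicate 3. Every DZ ratio was above the 4 lowest SFZ ratios, and 2 SFZ ratios lay among those of DZ. These ratios rest on few C1q fragments in DZ and were not tested.

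**Figure D3:**
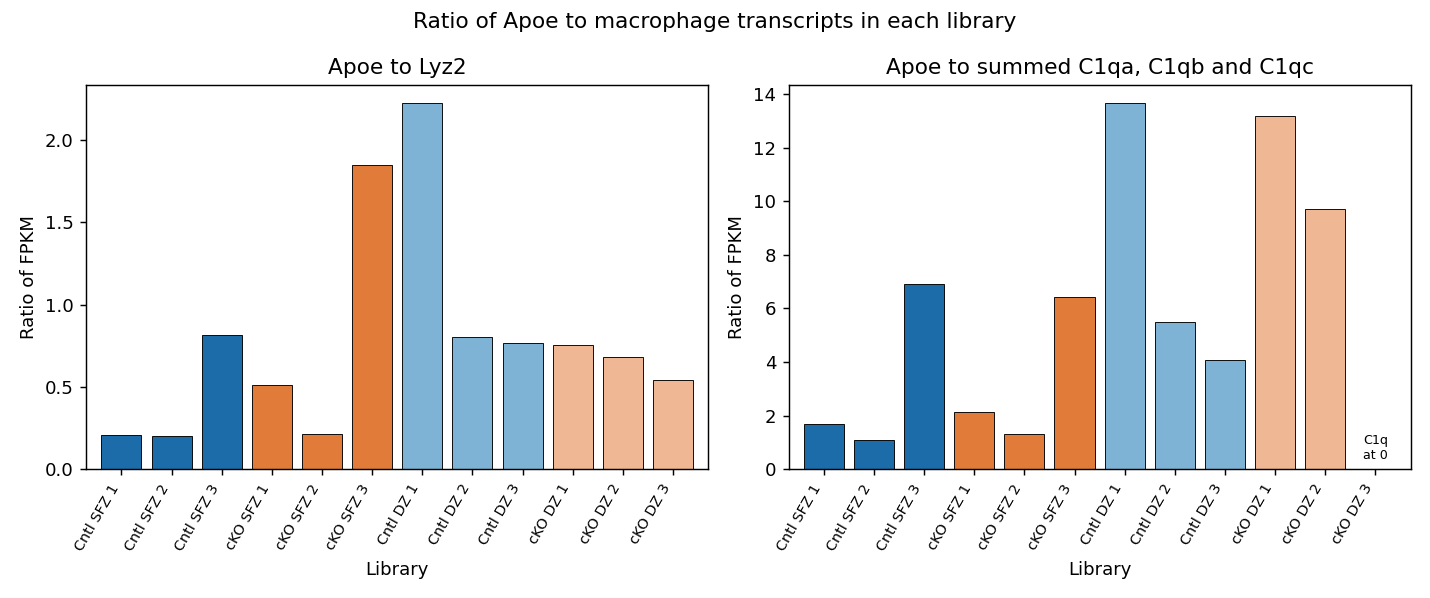
Ratio of Apoe FPKM to Lyz2 FPKM (left) and to the summed FPKM of C1qa, C1qb and C1qc (right), with 1 bar for each of the 12 libraries; no bar is drawn where the C1q genes were listed at 0. The Lyz2 ratio runs from 0.201 to 2.22 and is highest in replicate 1 of R3-Cntl DZ and replicate 3 of R3-cKO SFZ.

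The nearest neighbours of Apoe and of the macrophage genes were different genes. Closest to the macrophage mean, outside the 8, were Fcer1g (r = 0.996), Lyz1 (0.992), Lmo2 (0.989), Adgre1 (0.989), Stab1 (0.986), Cd48 (0.984), Lilrb4a (0.983), Cd53 (0.983), Ms4a6d (0.982) and Cd84 (0.981), of which 6 were in the macrophage or leukocyte lists. Closest to Apoe were Qpct (r = 0.967), Nthl1 (0.956), Cfap126 (0.956), Plxnc1 (0.952), Gdf1 (0.948), Eid2 (0.948), Psmb9 (0.947), Tbkbp1 (0.946), Ccdc126 (0.945) and Pnpla8 (0.944), of which 0 were in those lists. The macrophage gene nearest to Apoe was C1qc, at r = 0.887 and rank 109.

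Gene lists were compared in the same way, without a test of the differences between values of r. The mean of 19 other macrophage genes had r = 0.995 with the macrophage mean and 0.808 with Apoe, and that of 18 leukocyte genes had 0.970 and 0.722. For 23 genes of apolipoproteins and sterol transport, Apoe left out, r was 0.870 with the macrophage mean and 0.937 with Apoe, and for 24 lysosome genes it was 0.649 and 0.846. For 5 genes of the osteoclast list it was 0.852 and 0.870 and for the fibroblast and synovial list 0.404 and 0.441. Clu, an apolipoprotein made by many cells, was at 34.2, 43.1 and 28.7 FPKM in R3-Cntl SFZ and at 44.2, 17.9 and 111 FPKM in R3-cKO SFZ. Like Apoe in SFZ, it was lowest in replicate 2 and highest in replicate 3 of R3-cKO. Chondrocyte genes had r of 0.224 with the macrophage mean and 0.172 with Apoe.

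**Figure D4:**
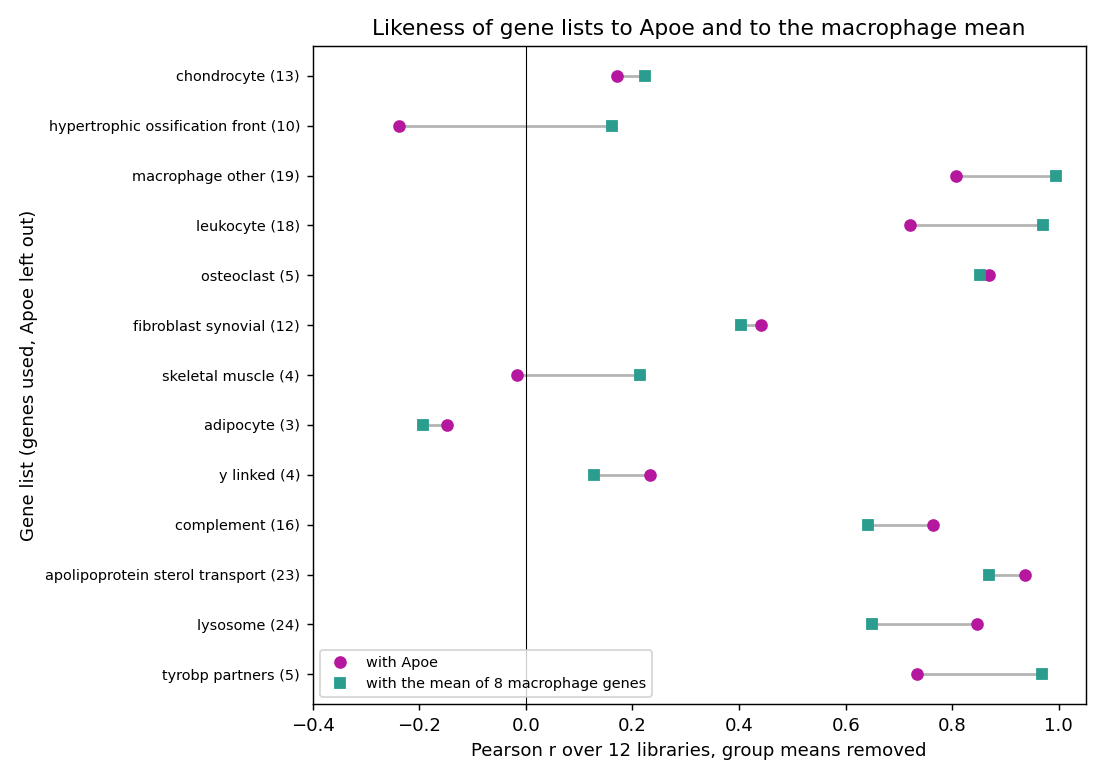
Pearson r of the mean of each gene list with Apoe (circles) and with the mean of the 8 macrophage genes (squares) on the horizontal axis, over 12 libraries after removal of group means; the number of genes used stands beside each list. Macrophage, leukocyte and Tyrobp partner lists lie nearer the macrophage mean, and apolipoprotein, lysosome and complement lists nearer Apoe, with little between the 2 values for osteoclast and fibroblast lists.

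Beside 16.8% of all genes, 5 of 24 tested lysosome genes, 4 of 23 apolipoprotein and sterol transport genes and 4 of 16 complement genes were called lower in DZ, so the first 2 lists were near the share of all genes. Of the 16 complement genes only 8 reached 1 FPKM in at least 3 DZ libraries. The medians were -0.48, -0.31 and -0.68 on the log2(FPKM + 1) scale, beside -0.14 over all genes tested. Osteoclast genes, from cells of the same lineage as macrophages, had 0 of 5 tested genes past the threshold. Ctsk, the most abundant, was highest in replicate 3 of R3-cKO SFZ at 174 FPKM. Among the listed osteoclast genes too low to be tested, Calcr reached 0.01, Dcstamp 0.08, Ocstamp 0.11, Oscar 0.22 and Tnfrsf11a 0.40 FPKM. Mmp9, also not tested, reached 3.43 FPKM. Whether osteoclasts contributed to these values was not tested. Neutrophil genes summed to 6.0 to 47.1 FPKM, with Lcn2 the most abundant, and endothelial genes to 4.5 to 15.3 FPKM, each highest in replicate 1 of R3-Cntl SFZ. Skeletal muscle genes summed to 144.6 FPKM in replicate 2 of R3-Cntl SFZ and to 6.9 to 22.6 FPKM in the other 11 libraries. Genes of lymphocytes, mast cells and red cells summed to 1.1, 0.6 and 0.6 FPKM or less in every library.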

How the data were processed

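The authors sequenced paired-end reads, mapped them to mm9 (Bowtie 0.12.2 is named in the submitters' processing notes) and deposited 1 value per gene and library. The deposited values behave as FPKM scaled between libraries by the authors. In the study's methods, read counts were quantile normalized, put on a log2 CPM scale and fitted with linear models, steps which these values do not carry in full. A gene was kept in a comparison if 3 or more of its libraries reached 1 FPKM, log2(FPKM + 1) was computed, and groups were compared with limma 3.58.1 (trend) in R 4.3.3, with Benjamini-Hochberg adjustment over all genes tested and a threshold of 0.05. The procedure was tested on simulated data. Fold changes of low genes are understated on this scale. With 3 libraries against 3, an exact permutation test cannot go below 0.1, so none was used. Depth is known only through the estimated fragment steps.

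The 9 genes and the gene lists were chosen with earlier results of these data known. Named genes were the 9 members, the most abundant genes of each list with defining markers near 0, genes of the other macrophage list tested on DZ libraries, the Runx genes, Spi1, Lyz1, and the 10 genes most correlated with Apoe or with the macrophage mean. Csf1r, Folr2, Adgre1 and Mrc1 were singled out after their values were seen.

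In DZ every pair of libraries with the same number deviated together from its group means (r of 0.655 to 0.790 across 11073 genes), so the numbers were taken as pairs there, on the data and not on the labels.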

Additional observations from a re-analysis of the deposited data

How the results depend on the processing

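The counts for the SFZ and DZ genotype effects were 0 under every alternative run in limma. At an unadjusted p under 0.05 they ranged from 12 to 1204 genes in SFZ and from 184 to 1830 in DZ, beside 34 and 404. The count for the zone effect, 2424, was 1008 when only genes averaging 10 FPKM or more were kept, where fewer genes were tested, and 1245 to 2796 with 1 library left out, the lowest without replicate 2 of R3-Cntl SFZ and the highest without replicate 2 of R3-cKO SFZ. With a replicate block joining SFZ and DZ libraries of the same genotype and number it was 3965. The study took cells of both zones from 3 mice of each genotype, but which SFZ and DZ libraries share a mouse is not given. Deviations correlated at 0.414 to 0.783 for the same number in R3-cKO, where every library was closest to its own number as a hint from the data, but at -0.152 to 0.572 in R3-Cntl, where replicates 2 and 3 were not. The SFZ libraries of the 2 genotypes correlated at -0.412 to 0.788 for the same number. The zone comparison has no block, and the block changed no call of Cd68, Lyz2, Apoe or Laptm5.

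In SFZ 32 genotype differences of the 9 genes changed sign, none of them called. With the presence of Y-linked transcripts as a term, an alternative chosen after seeing the data, the log2 differences were 1.31 for Lyz2, 0.85 for Laptm5, 0.67 for Cd68, 1.02 for Tyrobp and 0.84 for Mpeg1, and with a pseudocount of 0.1 Tyrobp was at 0.21. With 1 library left out they ranged from -0.16 to 2.28 for Apoe, -1.75 to 0.75 for Lyz2, -1.05 to 0.35 for Laptm5, -1.04 to 0.38 for Cd68, -0.73 to 0.84 for C1qc, -0.84 to 0.84 for C1qb, -1.41 to 0.52 for Tyrobp, -1.19 to 0.37 for Mpeg1 and -0.62 to 0.89 for C1qa. The cause was not tested.

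The correlation of Apoe with the macrophage mean was 0.631 in DZ alone and 0.808 to 0.917 with 1 library left out. The lowest adjusted p of a member for the SFZ genotype effect in limma was 0.472. The zone differences of the 9 genes stayed below 0 in every alternative. Under the same filter only Apoe and Lyz2 had a zone value and none of the 9 genes had a DZ genotype value. Few fragments limit the DZ values of the C1q genes, Mpeg1 and Tyrobp.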
